A study of Mus musculus with 6 samples.

Results

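The progesterone receptor gene Pgr and 3 progesterone-responsive genes, Sult1d1, Sgk1 and Prap1, were followed in the uterus of female mice at 3.5 days post coitum. They were chosen by name, with earlier results of these data known, and comprise every probe set annotated to them: 7 of the 1382 probe sets in the deposited table, and 4 of the 987 genes with a single symbol. Of the 7 probe sets, 3 read Pgr, 2 Sult1d1, 1 Sgk1 and 1 Prap1. Whole uteri of Stat3 f/f mice, which carry floxed alleles of the transcription factor gene Stat3 (3 arrays, replicates 1, 2 and 4), were compared with uteri of Stat3 d/d mice, whose alleles are deleted (3 arrays, replicates 1, 2 and 3). Biotin-labelled cRNA was hybridised to Affymetrix arrays, and the values are normalized intensities on a linear scale. Neither the Cre line nor the cells it acts in is given in the sources used here. Cre lines inserted into Pgr itself are in common use for deletion in the uterus, so an effect of such an allele on Pgr and an effect of Stat3 loss cannot be told apart here.

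Progesterone acts through its receptor, a nuclear hormone receptor that binds DNA when occupied by the hormone. In the mouse uterus before implantation the receptor is found in epithelium and stroma, and much of the epithelial response is relayed to the stroma through Indian hedgehog (Ihh), which supports the stromal factors Nr2f2, Hand2, Bmp2 and Wnt4. Around this time progesterone restrains oestrogen-driven growth of the luminal epithelium and prepares the stroma for decidualization, its change into the decidua around an implanting embryo. Sult1d1 encodes a cytosolic sulfotransferase, Sgk1 a serine/threonine kinase that is induced by steroid hormones and raises sodium uptake through epithelial channels, and Prap1 a secreted proline-rich acidic protein of the uterine epithelium.

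The DNA before the start sites of the 4 genes is shown because 3 of them rose together while the receptor gene fell. The sequences are from RefSeq (GRCm38.p6), 250 bases before an annotated start, written 5′ to 3′ on the gene's strand: Pgr at chr9:8899583-8899832 on the plus strand, Sult1d1 at chr5:87569007-87569256 on the minus strand, Sgk1 at chr10:21993640-21993889 on the plus strand (1 of 6 listed starts) and Prap1 at chr7:140093146-140093395 on the plus strand. Capitals mark the hormone response element described next.
Pgr: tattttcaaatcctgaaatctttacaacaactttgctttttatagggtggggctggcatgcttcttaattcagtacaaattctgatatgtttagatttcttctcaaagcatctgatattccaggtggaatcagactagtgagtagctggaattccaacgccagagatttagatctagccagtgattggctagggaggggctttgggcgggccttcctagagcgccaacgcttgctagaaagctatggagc
Sult1d1: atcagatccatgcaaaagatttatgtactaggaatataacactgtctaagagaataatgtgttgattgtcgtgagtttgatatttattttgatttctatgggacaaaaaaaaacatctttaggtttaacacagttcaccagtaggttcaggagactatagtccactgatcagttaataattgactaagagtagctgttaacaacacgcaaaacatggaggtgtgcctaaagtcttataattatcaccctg
Sgk1: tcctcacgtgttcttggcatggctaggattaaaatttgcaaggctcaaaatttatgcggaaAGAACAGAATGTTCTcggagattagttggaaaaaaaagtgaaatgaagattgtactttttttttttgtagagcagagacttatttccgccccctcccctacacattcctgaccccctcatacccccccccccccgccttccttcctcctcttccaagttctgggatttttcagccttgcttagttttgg
Prap1: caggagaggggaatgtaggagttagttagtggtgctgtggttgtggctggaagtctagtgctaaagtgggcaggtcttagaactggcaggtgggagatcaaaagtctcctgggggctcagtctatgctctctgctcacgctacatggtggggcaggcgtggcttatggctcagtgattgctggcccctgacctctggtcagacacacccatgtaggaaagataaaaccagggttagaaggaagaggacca

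The element searched for was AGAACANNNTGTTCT on both strands, the inverted repeat that the progesterone, glucocorticoid and androgen receptors share. It stood in 3 of 32851 such windows over all RefSeq starts (0.0091%), and 1 of these was the printed Sgk1 window, where it covers bases 189 to 175 before the start. Of the table's genes, 758 had a window, and Sgk1 was the only one of them with the full element. Its single repeat unit, TGTTCT or AGAACA, which the full element also contains, stood in 3 of the 6 Sgk1 windows and in 16.1% of all windows. The Pgr, Sult1d1 and Prap1 windows held neither the full element nor a single unit. The STAT element TTCNNNGAA, searched for likewise, stood in 7.02% of all windows and in 1 of the 9 windows of these genes, a different Sgk1 window from the one printed. The motifs were chosen after the data were seen, and a match describes letters only.

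Stat3 itself was lower on every Stat3 d/d array: its brighter probe set read 41.0% of the Stat3 f/f mean, and the other 42.6%. Where these probe sets lie relative to the deleted part was not examined. The table is a selection made on this comparison: each of its probe sets differs at least 1.5-fold between the arithmetic group means, with groups that do not overlap. Over all of it, 100% of probe sets passed an adjusted p of 0.05 in limma (931 higher in Stat3 d/d, or 67.4%, and 451 lower, or 32.6%), so passing says nothing particular about the 4 genes, and each adjusted p below is a description. If 45000 tests are assumed, about the size of a whole array, 37.5% of the probe sets passed. Median changes depend on scaling: the median log2 change of the table, 0.70, became 0.24 after centring arrays on their medians and 0.25 after quantile normalization. The share of higher probe sets among those past the threshold went from 67.4% to 48.3% and 49.2%. Precision is limited by the number of arrays. Since no label ties an array to an animal of its own, the p-values reflect the spread between samples alone, and part of it may be technical.

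Pgr, the receptor, fell in Stat3 d/d on each of its 3 probe sets, to between 54.3% and 64.0% of the Stat3 f/f mean. The brightest probe set read 1065, 1107 and 1613 on Stat3 f/f replicates 1, 2 and 4. On Stat3 d/d replicates 1, 2 and 3 it read 730.2, 645 and 706. Replicate 4 stood highest among the Stat3 f/f arrays, and the lowest Stat3 f/f array was still 1.46-fold above the highest Stat3 d/d array. The group means were 1261 ± 305 and 694 ± 43.9 (SD, n = 3 arrays each), a log2 change of -0.84 (SE 0.20, 95% interval -1.27 to -0.40, adjusted p = 0.00277 in limma). Without Stat3 f/f replicate 4 the change was -0.65. After quantile normalization it was -1.34 and after median centring -1.30, and the adjusted p was 0.0901 with 45000 assumed tests.

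The second Pgr probe set gave nearly the same change. It read 38.8, 37.7 and 58.3 on the Stat3 f/f arrays and 25.1, 23.4 and 24.7 on the Stat3 d/d arrays. Its log2 change was -0.83 (SE 0.20), and its readings again placed Stat3 f/f replicate 4 on top. The third read 18.6, 23.7 and 27.2 on the Stat3 f/f arrays and 14.8, 13.5 and 16.3 on the Stat3 d/d arrays. Its groups came closest, 1.14-fold apart at their nearest arrays, and its log2 change of -0.60 (SE 0.19) was the smallest of the 3. Whether the probe sets of a gene changed unequally was tested by permuting the 6 arrays exactly, in the 4 pairs that these genes offer. The change of the brightest Pgr probe set differed from that of the third by -0.24 (two-sided exact permutation p = 0.20, adjusted p = 0.60) and from that of the second by -0.01 (exact permutation p = 0.80). The smallest p that 3 arrays against 3 allow is 0.1, so unequal change could not have been shown by this test.

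Sult1d1, the sulfotransferase, rose 3.07-fold and 3.10-fold on its 2 probe sets. The brighter read 377, 208 and 174 on Stat3 f/f replicates 1, 2 and 4. On Stat3 d/d replicates 1, 2 and 3 it read 803, 744 and 669. Stat3 f/f replicate 1 was the highest array of its group, and the lowest Stat3 d/d array was 1.77-fold above it. Group means were 253 ± 109 and 738 ± 67.2 (SD, n = 3), a log2 change of 1.62 (SE 0.26, 95% interval 1.04 to 2.20, adjusted p = 0.000444 in limma). The second probe set read 97.6, 70.6 and 45.0 on the Stat3 f/f arrays and 228, 218 and 193 on the Stat3 d/d arrays, a log2 change of 1.63 (SE 0.25). Both probe sets placed the 6 arrays in the same order, and their changes differed by -0.01 (exact permutation p = 1.0, smallest possible 0.1). The change was 1.14 after quantile normalization and 1.15 after median centring. Sult1d1 passed with 45000 assumed tests (adjusted p = 0.0145), where 37.5% of the table did.

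Sgk1, the steroid-induced kinase, rose 1.95-fold. Its single probe set read 204, 158 and 202 on Stat3 f/f replicates 1, 2 and 4. It read 439, 367 and 301 on Stat3 d/d replicates 1, 2 and 3. The Stat3 d/d arrays spread 1.46-fold, about as much as the 1.48-fold gap between the nearest arrays of the groups. The means were 188 ± 26.1 and 369 ± 68.9 (SD, n = 3), with a log2 change of 0.96 (SE 0.20, 95% interval 0.53 to 1.40, adjusted p = 0.00147 in limma). Of the 4 genes, Sgk1 was the one whose call depended on scaling: its change was 0.50 after median centring (adjusted p = 0.0360) and 0.41 after quantile normalization (adjusted p = 0.0811). The rise lay above the table's median change of 0.70, and 428 of the 931 higher probe sets rose more.

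Prap1, the secreted epithelial protein, rose 4.55-fold, the most of the 4 genes, and varied the most. It read 9.78, 6.57 and 14.5 on Stat3 f/f replicates 1, 2 and 4, near the lowest intensity of the table (2.47). On Stat3 d/d replicates 1, 2 and 3 it read 60.6, 102 and 17.7. Stat3 d/d replicate 3 lay only 1.22-fold above the highest Stat3 f/f array, while the Stat3 d/d arrays differed 5.76-fold among themselves. The means were 10.3 ± 3.96 and 60.1 ± 42.1 (SD, n = 3), and the log2 change was 2.19 (SE 0.51, 95% interval 1.06 to 3.31, adjusted p = 0.00275 in limma). Without Stat3 d/d replicate 3 it was 2.88, and without replicate 2 of that group 1.65. With 45000 assumed tests the adjusted p was 0.0896. By its Affymetrix suffix, the probe set shares sequence with further transcripts, so its reading may hold more than Prap1.

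**Figure D1:**
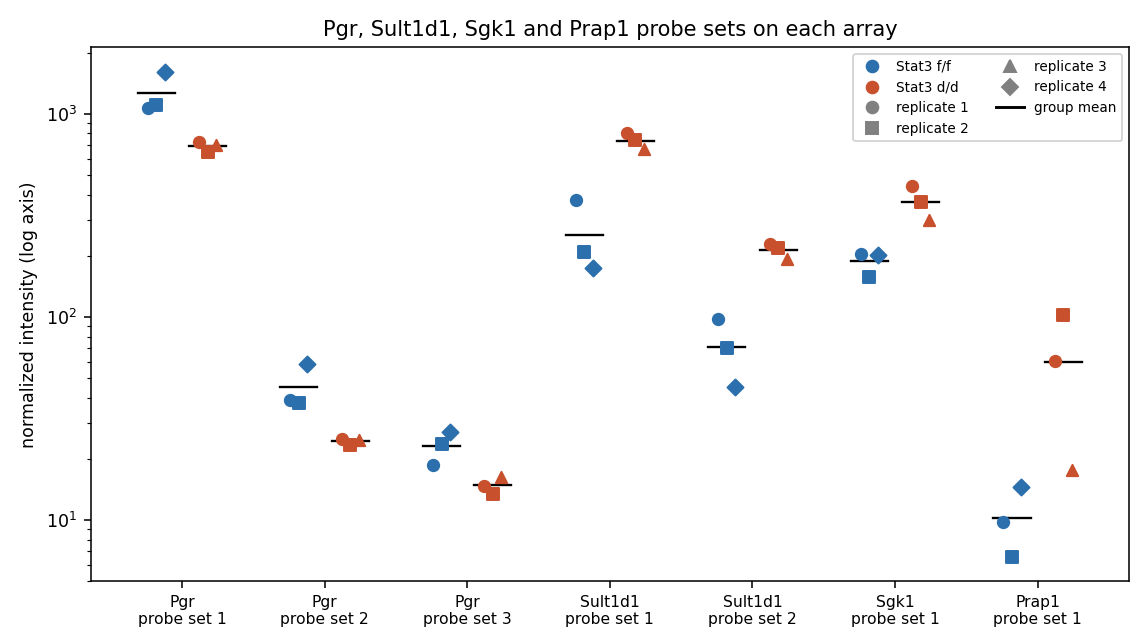
Normalized intensity (log axis) of the 7 probe sets of Pgr, Sult1d1, Sgk1 and Prap1 on each of the 6 arrays, with Stat3 f/f in blue, Stat3 d/d in orange, symbols for the replicate number and bars for the group means (n = 3). The 3 Pgr probe sets are lower on every Stat3 d/d array and the 4 others higher, and Prap1 on Stat3 d/d replicate 3, at 17.7, sits close to the highest Stat3 f/f array, at 14.5.

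Receptor level and responsive genes thus went opposite ways: the receptor gene fell and the other 3 genes rose, on each of the 7 probe sets. No direction of the 4 genes turned under any alternative setting run for the brightest probe set of each gene. Because the groups do not overlap, only quantile normalization and median centring could have turned one. Both lowered the changes of all 4 genes, so they bore on the 3 rises and could not have turned the fall of Pgr. The arrays within a group did not line up as the groups did. Among Stat3 f/f arrays, replicate 4 had the highest Pgr and the lowest Sult1d1, but also the highest Prap1, and its Sgk1 reading of 202 was close to the 204 of replicate 1. Among Stat3 d/d arrays, Pgr spanned only 1.13-fold on its brightest probe set, whereas Prap1 spanned 5.76-fold. Replicate 3 of that group was lowest for Sult1d1, Sgk1 and Prap1, yet not for Pgr, which was lowest in replicate 2.

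**Figure D2:**
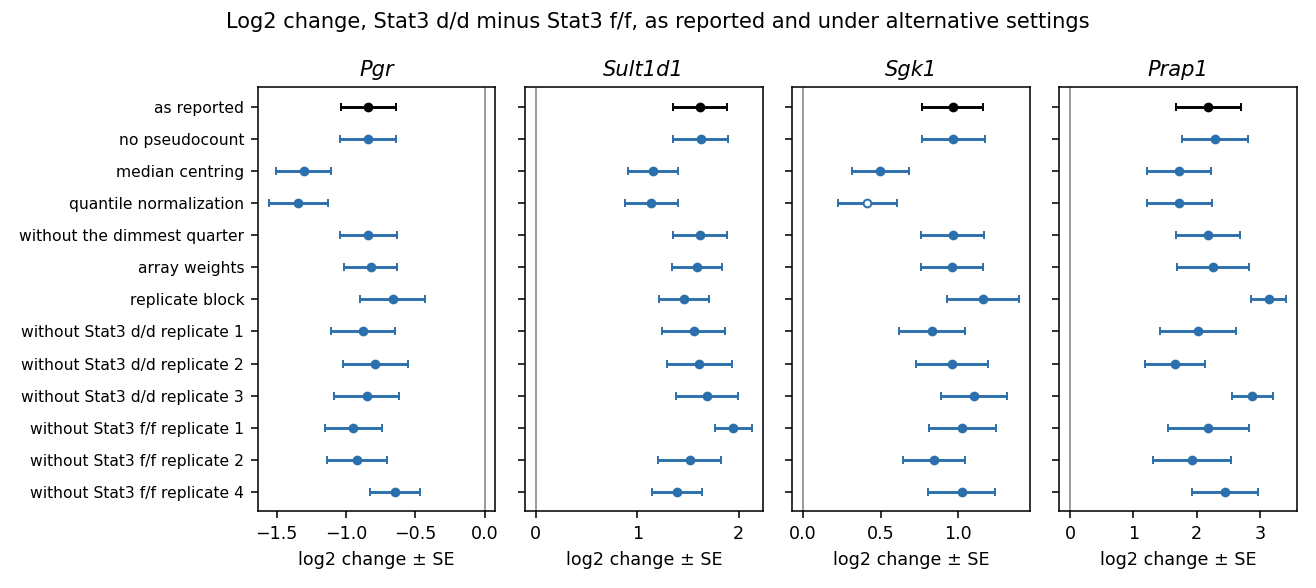
Log2 change (Stat3 d/d minus Stat3 f/f, ± SE) of the brightest probe set of each gene as reported and with other pseudocount, scaling, filter, weights or block, or without each array; the variance models, other probe sets and 45000 assumed tests are not drawn, and an open symbol marks an adjusted p of 0.05 or more. Pgr stays below 0 and the other genes above 0 in each setting drawn, and Sgk1 after quantile normalization, at 0.41, is the one open symbol among the settings drawn. Because the groups do not overlap, only quantile normalization and median centring could have turned a direction, and as both lowered all changes drawn, not that of Pgr.

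Other genes of progesterone action came from 8 lists chosen with earlier results known. Together they name 79 further genes, of which 9 were in the table, 5 higher and 4 lower, with a median log2 change of 0.57 beside 0.70 over all genes. Of all probe sets in the table, 67.4% were higher and 32.6% lower. The other 70 were not analysed here, among them Ihh, Hand2, Nr2f2, Bmp2 and the receptor chaperone gene Fkbp4. All 12 listed epithelial targets fall in that group, so the epithelial relay to the stroma cannot be described at its first step.

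Of the 17 targets on the stromal list, 2 were in the table and both fell, where 32.6% of all probe sets were lower. Wnt4, a ligand needed for decidualization, read 29.5, 36.7 and 86.9 on the Stat3 f/f arrays and 17.6, 14.5 and 18.0 on the Stat3 d/d arrays, by its brighter probe set. Stat3 f/f replicate 4, on which Pgr was highest, was also far the highest for Wnt4. The log2 change of Wnt4 was -1.40 (SE 0.33), or -0.94 without that array, and the second Wnt4 probe set gave -0.97. Cebpb, a transcription factor required for decidualization, read 310, 246 and 298 on the Stat3 f/f arrays and 172, 195 and 149.99 on the Stat3 d/d arrays, a log2 change of -0.72 (SE 0.18). Neither Wnt4 nor Cebpb passed in limma with 45000 assumed tests (adjusted p = 0.0961 and 0.118), where 37.5% of the table did. These genes of the stromal list moved in the direction of the receptor gene and against Sult1d1, Sgk1 and Prap1. Whole uterus does not show in which cells they fell. Fgf1, a growth factor of the group that stromal Hand2 holds down under progesterone, rose from 23.8 ± 3.05 to 82.7 ± 13.1 (SD, n = 3), a log2 change of 1.75 (SE 0.18), and its second probe set gave 1.53. The other 3 growth factors of that list were not analysed here.

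Among epithelial genes that oestrogen induces and progesterone opposes, the iron-binding lipocalin gene Lcn2 was the 1 of 4 in the table. It fell from 164 ± 58.7 to 15.2 ± 5.18 (SD, n = 3), a log2 change of -3.33 (SE 0.30). Lcn2 is also an acute-phase gene known to respond to STAT3. Of 23 genes of the receptor machinery, only Nrip1, a corepressor of nuclear receptors, was present. Its signal was dim. The Stat3 f/f mean was 9.14 ± 1.11 and the Stat3 d/d mean 19.1 ± 5.87 (SD, n = 3), with a log2 change of 0.96 (SE 0.22) that lost its call under both scalings (0.48 and 0.49).

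Of 9 listed steroid response genes, chosen as ones that the glucocorticoid receptor also regulates, 2 were in the table. Tsc22d3, a leucine zipper protein induced by glucocorticoids, read 403, 298 and 274 on the Stat3 f/f arrays and 485, 535 and 448 on the Stat3 d/d arrays. Its log2 change of 0.61 (SE 0.19) fell to 0.15 after quantile normalization (adjusted p = 0.460) and 0.14 after median centring (adjusted p = 0.498). Hsd11b1, the enzyme that regenerates active glucocorticoid, changed by 0.57 (SE 0.20), and lost its call under both scalings (0.09 and 0.10), without Stat3 f/f replicate 1 (0.52) and without Stat3 d/d replicate 1 (0.37). On the route from Sgk1 to sodium uptake, 1 of 7 genes was present. This was Nedd4, a ubiquitin ligase related to the SGK1 substrate NEDD4L, which fell from 2477 ± 255 to 1323 ± 407 (SD, n = 3), a log2 change of -0.95 (SE 0.23). Of the sulfotransferases and the enzymes that make their sulfate donor, 1 of 9 was present: Papss2, a synthase of that donor, rose from 20.5 ± 4.29 to 37.2 ± 4.77 (SD, n = 3). Its log2 change was 0.84 (SE 0.20), and 0.36 and 0.37 under the scalings, where it was not called.

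**Figure D3:**
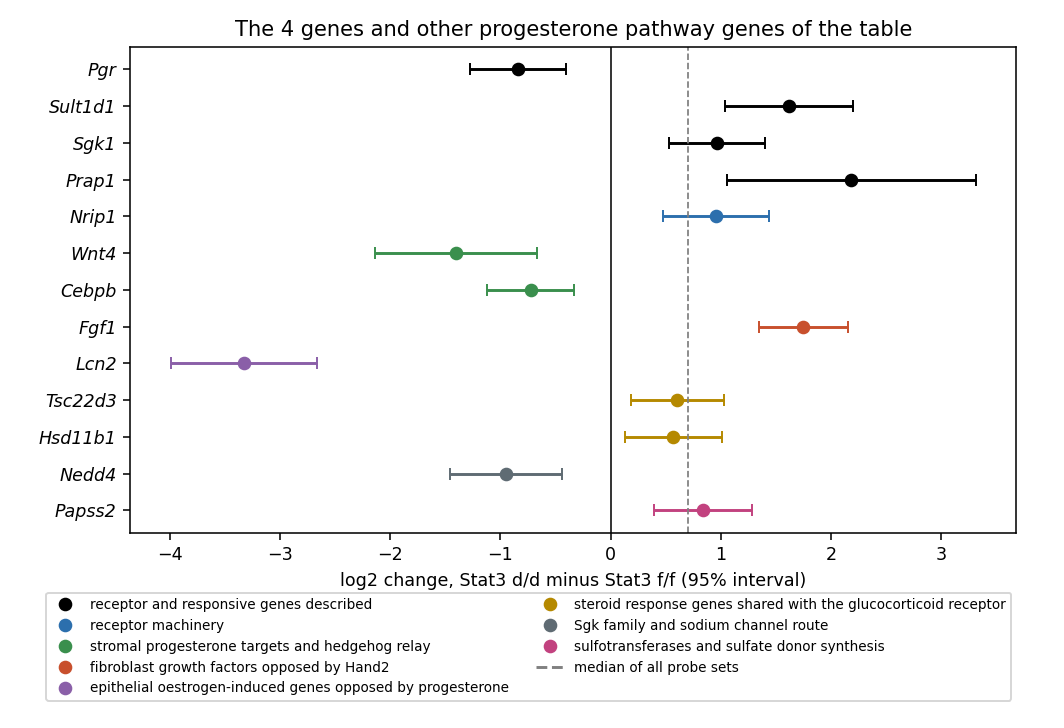
Log2 change (Stat3 d/d minus Stat3 f/f) with its 95% interval from limma for the brightest probe set of the 4 genes and of the 9 other pathway genes in the table, coloured by list; the dashed line is the median of all probe sets, 0.70. Pgr, Wnt4, Cebpb, Nedd4 and Lcn2 lie below 0, while Sgk1, Nrip1, Tsc22d3, Hsd11b1 and Papss2 lie between 0.57 and 0.96, near the dashed line. The intervals do not allow for the selection of the table on this comparison.

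In whole uterus, fewer cells of a type and less RNA per cell cannot be told apart. Markers of several cell types moved with the groups, as 100% of the table's probe sets did by its selection. Of 15 leukocyte markers 8 were in the table, all higher in Stat3 d/d, where 67.4% of all probe sets were higher. Their summed intensity was 279 to 482 on the Stat3 f/f arrays and 880.2 to 1701 on the Stat3 d/d arrays. Of 11 epithelial markers 2 were present, the claudins Cldn3 and Cldn4, with sums of 516 to 815 and 1028 to 1209. Of 12 stromal markers 2 were present, Thy1 and Dcn, with sums of 371 to 585 and 250.1 to 316. The stromal sum is mostly Thy1, whose Stat3 f/f and Stat3 d/d means were 461 and 269, against 27.6 and 12.7 for Dcn. The gland list held 1 of 8 (Ttr, 5.22 to 20.2 against 53.1 to 73.8) and the ovary and oviduct list 1 of 7 (Ovgp1, 7.42 to 31.3 against 240 to 494). The embryo list held 1 of 6 (Eomes, 6.07 to 7.22 against 16.3 to 25.4), and whether its signal came from embryos or other cells was not tested. The muscle list (7 genes) and the endothelial list (6 genes) had none in the table. No marker present read 0 on any array, and nor did any other probe set, the lowest intensity being 2.47.

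The epithelial and leukocyte markers in the table were thus higher alongside Sult1d1, Sgk1 and Prap1, and the stromal pair was lower alongside Pgr, Wnt4 and Cebpb. Within Stat3 f/f, replicate 4 had the lowest leukocyte, claudin, Ttr and Ovgp1 levels and the lowest Sult1d1, and the highest stromal sum and Pgr. Prap1 and Sgk1 went otherwise on that array. Prap1 was the highest of its group there, at 14.5, and Sgk1 read 202, beside 204 on replicate 1 and 158 on replicate 2. The part of cell composition in the changes of the 4 genes was not tested.

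**Figure D4:**
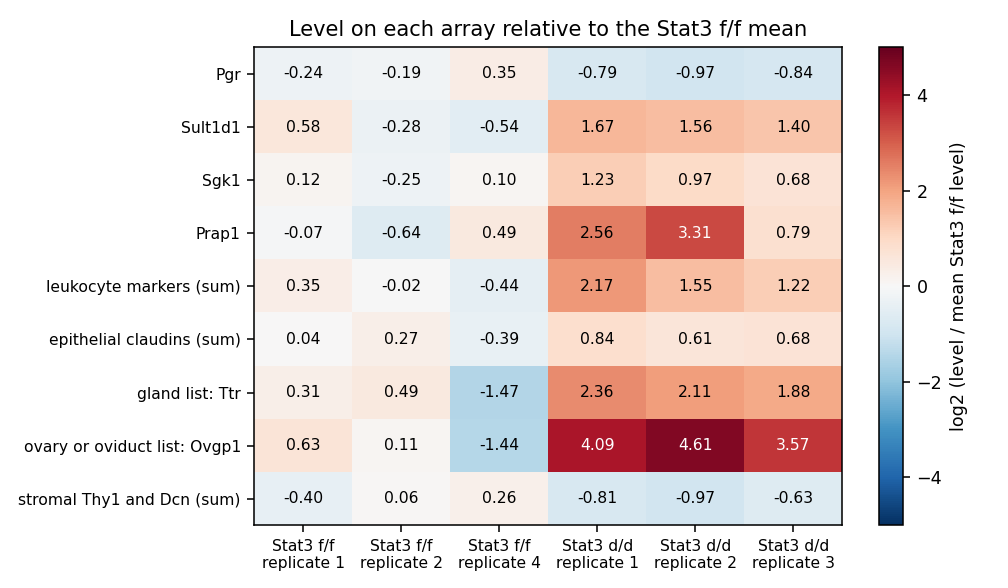
Log2 of the level on each array relative to the mean of the Stat3 f/f arrays, for the brightest probe set of Pgr, Sult1d1, Sgk1 and Prap1 and for the summed intensity of the marker genes in the table. Red marks higher and blue lower levels. Pgr and the stromal pair, whose sum is mostly Thy1, are below 0 on all 3 Stat3 d/d arrays. They lie at -0.79 to -0.97 and -0.63 to -0.97, and the other items are above 0 there.

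The genes whose levels most resembled each of the 4 over the 6 arrays were named by Pearson's r of log2 intensities, as a description without a test. Because the whole table separates the groups, high values are common: r was above 0.9 for 13.6% of the other probe sets with Pgr, 32.0% with Sult1d1, 28.7% with Sgk1 and 4.49% with Prap1. Closest to Pgr were Abcc3, a transporter of organic anions and bile salts (r = 0.998), the cell adhesion gene Cadm1 (r = 0.997) and the endothelial lipase gene Lipg (r = 0.995). Like Pgr, each was highest on Stat3 f/f replicate 4, and their log2 changes were -0.82, -0.97 and -0.93. Closest to Sult1d1 were the glutathione transferase gene Gsto1, Nampt, an enzyme of NAD synthesis, and the transcription factor gene Ebf1, with r of 0.9940, 0.9939 and 0.9935 and changes of 1.24, 0.91 and 1.41. Closest to Sgk1 was the MHC class I gene H2-D1 (r = 0.998, change 1.29), followed by the leukocyte sialoglycoprotein gene Spn (0.991) and N4bp2l1 (0.991). Spn and N4bp2l1 were dim, with Stat3 f/f means of 5.34 and 7.08. Closest to Prap1 were Ifi209, an interferon-induced gene (r = 0.978), the Fas ligand gene Fasl (0.973) and the MHC class I gene H2-K1 (0.972). These 3 were dim too, with Stat3 f/f means of 4.12, 4.17 and 15.8, and all were lowest among Stat3 d/d arrays on replicate 3, as Prap1 was.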

How the data were processed

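The deposited values are linear probe set intensities from 6 arrays. The submitters' processing notes name RMA, with no version, and RMA gives log2 values, so a return to a linear scale that no source records must have followed. The genome build is not given in the sources used here. Probe sets were named by the platform's annotation: 1191 had 1 symbol, 57 several and 134 were unnamed here; 1186 matched the RefSeq gene table (GRCm38.p6), which changed 0 symbols.

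The groups were compared on log2(intensity + 1), which understates changes of dim genes, with lmFit and eBayes of limma 3.58.1 (R 4.3.3) and no covariate. P-values were Benjamini-Hochberg adjusted over all 1382 probe sets and a threshold of 0.05; the script was tested on simulated data. A gene is represented by its brightest probe set. Genes named are the 4 chosen, Stat3, list members in the table, and the 3 genes most like each of the 4. Genes and lists were chosen with earlier results of these data known. No 2 arrays shared over 0.362% of values. Figures used matplotlib 3.10.9.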

Additional observations from a re-analysis of the deposited data

How the results depend on the processing

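The 4 genes kept their direction under every alternative run: no pseudocount, quantile normalization, median centring, without the dimmest 25% of probe sets, variance trend, robust variance, array weights, the replicate block, leaving out each array, other probe sets, the mean over probe sets and, chosen after seeing the data, 45000 assumed tests. Because the groups do not overlap, only the scalings and the other probe sets, alone or in the mean, could have turned a direction. The scalings lowered all 4 changes, so they could not have turned that of Pgr. The calls lost were Sgk1 after quantile normalization (0.41), and Pgr (-0.84) and Prap1 (2.19) with 45000 assumed tests. The losses of Pgr and Prap1 follow from the number of tests. That of Sgk1 came with a smaller log2 change, 0.41 against 0.96, and a similar SE, 0.19 against 0.20. What lies behind the smaller change was not tested. Median centring lowered the log2 change of every probe set by the same amount, that of Pgr from -0.84 to -1.30. Quantile normalization also lowered the changes of all 4 genes, that of Pgr to -1.34. Probe sets past the threshold numbered 887 after quantile normalization, 873 after median centring and 518 with 45000 assumed tests, against 1382. Leaving out each array gave 1347 to 1377 probe sets, and log2 changes of -0.95 to -0.65 for Pgr, 1.39 to 1.95 for Sult1d1, 0.83 to 1.10 for Sgk1 and 1.65 to 2.88 for Prap1. The replicate numbers 1 and 2 occur in both groups, but nothing in the labels pairs them. Same-numbered arrays had correlations of deviations of 0.09 and 0.03. Over all pairs of a Stat3 f/f and a Stat3 d/d array these correlations ran from -0.15 to 0.16. The highest was that of Stat3 f/f replicate 4 with Stat3 d/d replicate 3. With the replicate number as a block 1284 probe sets passed, and the changes were -0.66 for Pgr, 1.46 for Sult1d1, 1.16 for Sgk1 and 3.14 for Prap1, with no call of these genes changed. Stat3 f/f replicate 4 and Stat3 d/d replicate 3 have no same-numbered array, so they do not enter these changes. The block fit thus compares replicates 1 and 2 of each group alone. Of the 135 values of the 9 other pathway genes under alternatives, 17 lost their call and 0 reversed, where only the scalings could have reversed any. Of the 7 probe sets, that of Prap1 had the largest SE (0.51), with Stat3 f/f readings close to the lowest intensities of the table. Because the table is a selection, it cannot show which scaling to prefer.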
